A study of Arabidopsis thaliana with 8 samples.

Results

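The genes described here are SAC51 (AT5G64340) and its relatives AT5G09460, AT1G29950 and AT5G50010 of Arabidopsis thaliana, which encode basic helix-loop-helix (bHLH) transcription factors. They were chosen by locus, as the genes of this family whose leaders hold a conserved upstream open reading frame (uORF). The rule uses no signal, but earlier results of these data were known when the family was picked. Of these 4 genes, 3 had a probe set on the array that the annotation assigns to them, each with 1 probe set, out of 13287 genes named in all. The probe set of AT1G29950 is listed there under a repeated symbol with 2 gene identifiers, of which the reference holds 1, and was taken as that gene. No probe set was named for SAC51 itself, so its mRNA was not analysed here. The probe sets of AT5G09460 and AT1G29950 passed the filter on signal and were tested, whereas that of AT5G50010 fell below it and is given by its signals.

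A uORF is a short coding sequence in the leader of an mRNA that ribosomes meet before the main start codon, and it usually lowers the number of ribosomes that go on to translate the main protein. In the SAC51 family the peptide encoded by the uORF is itself conserved among plants, and it represses translation of the bHLH protein. The plant polyamine thermospermine relieves this repression in SAC51. SAC51 takes its name from a mutation that suppresses the dwarf, xylem-rich phenotype of acaulis5, which lacks thermospermine synthase. The proteins of the family bind LONESOME HIGHWAY (LHW), a bHLH factor that drives divisions of vascular cells together with TMO5, and thereby restrain it.

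Polysome loading was compared between wild-type (WT) seedlings and seedlings of the eif3h mutant, which the study's methods give as the allele eif3h-1. The T-DNA of this allele lies inside TIF3H1, the gene for subunit h of eIF3, the scaffold that brings the small ribosomal subunit to mRNAs, and per the study a protein without its C-terminal end is still made at a low level. Both genotypes were grown for 10 days on agar with mineral salts and sucrose under continuous light, with no treatment that differed between them, and the pooled aerial parts of many seedlings were extracted in the presence of cycloheximide. Each extract was separated on a sucrose gradient into polysomal RNA (PL), which carries several ribosomes, and non-polysomal RNA (NP), which is ribosome-free or carries a single ribosome. Both fractions were hybridized to ATH1 arrays, which gives 4 groups with 2 replicates each and 8 arrays in all. The replicates were RNA preparations made on different days.

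The translation state of an mRNA is used here as log2 of its PL signal over its NP signal, and the change of translation state is the value in eif3h minus that in WT. A value of 0 stands for equal signals, and a negative value for more signal in NP. Every array was scaled to the same trimmed mean, so that all values are relative to the other mRNAs of the same fraction and cannot show a shift of all mRNAs together. The median signal of an array was lowest in the PL fractions of eif3h, at 185.75 and 189.0, and highest in their NP fractions, at 257.35 and 277.0, with the WT arrays between 194.4 and 234.35. A bulk fraction cannot tell a smaller number of cells that express a gene from less mRNA per cell.

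TIF3H1, the gene that encodes eIF3h, had signals of 2160.1 and 1732.5 in NP of WT, 1277.3 and 1148.7 in PL of WT, and 1897.3 and 1949.6 in NP of eif3h. Its signals in PL of eif3h were 213.4 and 192.4, below those of the other 6 arrays. Of the 5 listed markers of green tissue none was named on the array here. Of the 4 root markers, PYK10 (AT3G09260), a beta-glucosidase of root endoplasmic reticulum bodies that young seedlings also hold outside the root, had signals from 1812.6 to 9267.5 in these aerial samples, and EXPA7 (AT1G12560), a root hair expansin, had signals from 19.6 to 135.0. PYK10 differed between the genotypes by 0.05 in PL and by 0.20 in NP on the log2 scale. Its part in the values of the bHLH genes was not tested.

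AT5G09460 and AT1G29950 gave nearly the same mean level, 9.09 and 9.10 as the mean log2 signal over the 8 arrays, above 73.9% and 74.1% of all probe sets. Levels of different probe sets are not comparable as amounts of mRNA, so these places describe only how far each stood above the dim probe sets.

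The signal of AT5G09460, whose mRNA encodes 1 of the SAC51-like factors, was 560.8 and 579.1 in NP of WT and 482.2 and 614.4 in PL of WT. In eif3h it was 600.5 and 890.1 in NP and 407.5 and 372.8 in PL. The PL arrays of eif3h were thus the lowest of the 8 arrays, and both NP arrays of eif3h were above both NP arrays of WT, so that the genotypes did not overlap in either fraction. Of tested probe sets, 29% had both PL arrays of eif3h below both of WT, and 29.2% had both NP arrays above.

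The signal of AT1G29950, a further relative of SAC51, was 450.5 and 638.1 in NP of WT and 537.0 and 528.5 in PL of WT. In eif3h it was 631.0 and 779.4 in NP and 488.7 and 420.1 in PL. Here too both PL arrays of eif3h lay below both PL arrays of WT, but the NP arrays overlapped, since the first NP array of eif3h (631.0) was below the second of WT (638.1).

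**Figure D1:**
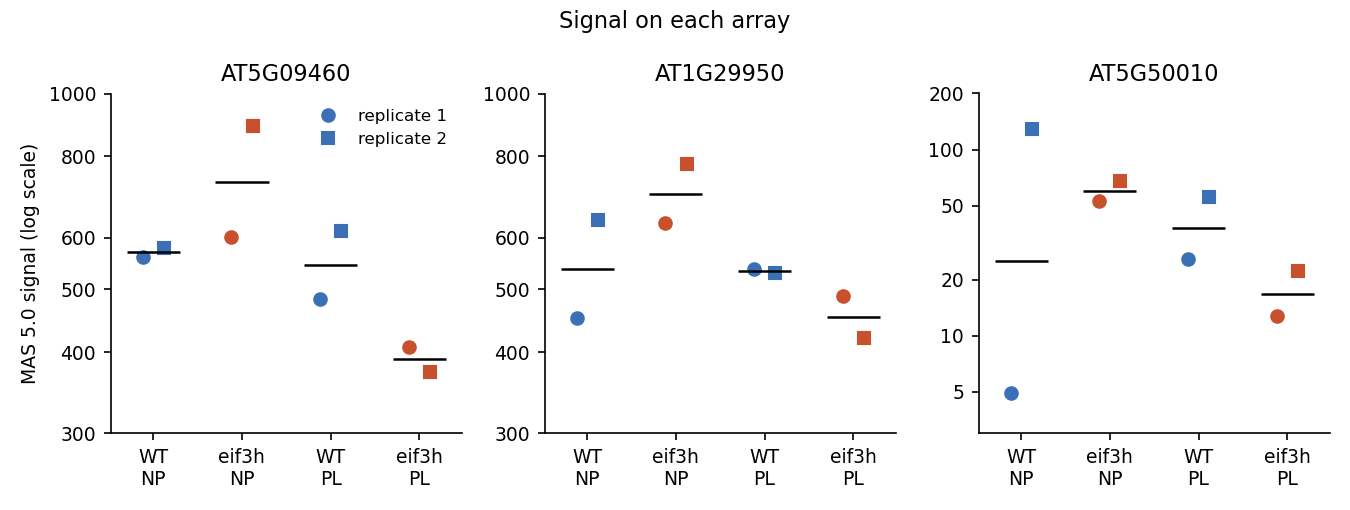
The MAS 5.0 signal (log axis) of the probe sets of AT5G09460, AT1G29950 and AT5G50010 is plotted on each of the 8 arrays by genotype (WT blue, eif3h orange) and fraction, with circles for replicate 1, squares for replicate 2 and bars for the mean of the 2 log2 signals. For AT5G09460 the signals in PL of eif3h, 407.5 and 372.8, are below all others, and the axis of AT5G50010 covers far lower signals, from 4.9 to 128.2.

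The first question was how these mRNAs were distributed in WT. AT5G09460 had translation states of -0.22 and 0.09 in the 2 WT gradients and AT1G29950 had 0.25 and -0.27, so that each gene had 1 gradient on either side of 0. The mean was -0.07 ± 0.23 (SE, n = 2 gradients) for AT5G09460 and -0.009 ± 0.23 for AT1G29950. The median over the 11373 tested probe sets was 0.005. Here and below the SE is that of the limma fit, which shares its spread over the 4 groups and all 8 arrays. It does not come from the 2 gradients alone, whose SD was 0.21 for AT5G09460 and 0.37 for AT1G29950. Neither passed the test with limma (adjusted p = 0.86 and 0.98), in a comparison that called 30.1% of tested probe sets. The 95% confidence intervals ran from -0.59 to 0.45 and from -0.54 to 0.52, and the signs of both means depended on the scaling of the arrays.

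In eif3h both mRNAs lay toward the non-polysomal fraction in both gradients. AT5G09460 had translation states of -0.56 and -1.26 (SD 0.49), and AT1G29950 had -0.37 and -0.89 (SD 0.37). Negative values in both gradients of eif3h were shown by 47.1% of tested probe sets. For both genes these values were below those of both WT gradients, a pattern shown by 32.2% of tested probe sets.

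The mean translation state of AT5G09460 in eif3h was -0.91 ± 0.23 (SE, n = 2 gradients), which is 1.88-fold less signal in PL than in NP, with a 95% confidence interval from -1.43 to -0.39. It passed the test in limma (adjusted p = 0.014), as did 39.2% of tested probe sets, while 22.2% passed with a negative value, and 16.2% of tested values lay below it. The median of all tested probe sets was -0.16. The call was lost without the second NP array of eif3h (-0.67, adjusted p = 0.10) or its second PL array (-0.68, adjusted p = 0.13), and with the arrays centred on the median of all probe sets (-0.40, adjusted p = 0.19), which called 42.8% of tested probe sets.

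The mean translation state of AT1G29950 in eif3h was -0.63 ± 0.23 (SE, n = 2 gradients), or 1.55-fold less signal in PL, with a 95% confidence interval from -1.16 to -0.10. It did not pass the test (limma, adjusted p = 0.058). A fit with a block for each gradient, which compares PL with NP inside it and called 47.1% of tested probe sets, let the same value pass (adjusted p = 0.040), and with the arrays centred on the median of all probe sets it was -0.12 (adjusted p = 0.71).

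**Figure D2:**
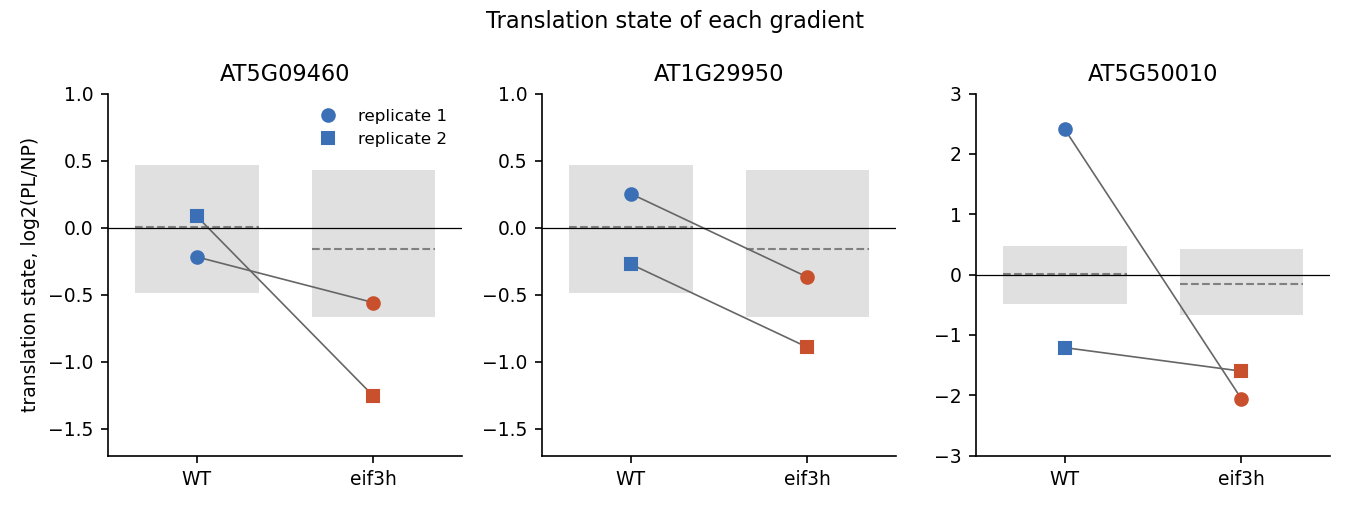
The translation state, log2(PL/NP), of AT5G09460, AT1G29950 and AT5G50010 is plotted for each gradient of WT and eif3h, with a line joining the gradients of the same replicate number. The grey boxes and dashed lines give the interquartile range and the median of all tested probe sets. All lines go down from WT to eif3h, with changes of -0.34 and -1.34 for AT5G09460 and -0.62 in both replicates for AT1G29950, and the axis of AT5G50010 is wider.

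The central question was whether loss of intact eIF3h altered the polysome loading of mRNAs with such leaders. For AT5G09460 the change of translation state was -0.34 in replicate 1 and -1.34 in replicate 2. For AT1G29950 it was -0.62 in both replicates. The change was negative in both replicates for 41.4% of tested probe sets.

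The mean change of AT5G09460 was -0.84 ± 0.33 (SE, n = 2 per genotype), a 1.79-fold lower ratio of PL to NP in eif3h, with a 95% confidence interval from -1.58 to -0.11. Of the tested changes, whose median was -0.12, 8.1% lay below it. It did not pass the test in limma (unadjusted p = 0.029, adjusted p = 0.30), in a comparison that called 0.0528% of tested probe sets, 6 in all, and the gradient block, which called 1.64%, did not change this (adjusted p = 0.19).

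The mean change of AT1G29950 was -0.62 ± 0.33 (SE, n = 2 per genotype), a 1.54-fold lower ratio, with a 95% confidence interval from -1.37 to 0.12. Of the tested changes 16.4% lay below it, and it did not pass the test (limma, unadjusted p = 0.092, adjusted p = 0.42; gradient block, adjusted p = 0.32). The changes of both genes stayed negative under every scaling, offset and left-out array tried, and no setting with all arrays called them. The block and the filter could not move these values in the balanced design, only their SE and p. Centring on the median of all probe sets brought them nearest to 0, at -0.48 for AT5G09460 and -0.26 for AT1G29950, while it moved the median of all tested changes to 0.24.

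The 2 genes were also compared with each other. The change of AT5G09460 minus that of AT1G29950 was 0.28 in replicate 1 and -0.72 in replicate 2, with a mean of -0.22 and an SD of 0.71, so that the genes changed places between the replicates. The 2 replicates of AT1G29950 differed little (SD 0.002) although its signals on the single arrays differed, and those of AT5G09460 differed more (SD 0.71). Neither gene had a mean change over the 2-fold limit that the study applied to genes meeting at least 1 of its criteria on replicates, and of these criteria AT1G29950 met that of an SD under 0.5 and AT5G09460 met none.

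The signals of eif3h and WT were also compared within each fraction. In PL, AT5G09460 was lower in eif3h by 0.24 and 0.72 on the log2 scale and AT1G29950 by 0.14 and 0.33. In NP, AT5G09460 was higher in eif3h by 0.10 and 0.62 and AT1G29950 by 0.49 and 0.29. A lower PL signal together with a higher NP signal in both replicates was seen for both genes and for 8.81% of tested probe sets.

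Within a single fraction none of these differences passed the test. In PL the mean difference was -0.48 ± 0.23 (SE, 95% confidence interval -1.002 to 0.038; limma, adjusted p = 0.20) for AT5G09460 and -0.23 ± 0.23 (-0.76 to 0.29; adjusted p = 0.55) for AT1G29950, where 13.5% of tested probe sets were called. Both PL arrays of eif3h below both of WT, as found for both genes, was found for 29% of tested probe sets. In NP the mean difference was 0.36 ± 0.23 (-0.16 to 0.88; adjusted p = 0.30) for AT5G09460 and 0.39 ± 0.23 (-0.14 to 0.91; adjusted p = 0.27) for AT1G29950, where 17.1% were called. Both NP arrays of eif3h above both of WT, as found for AT5G09460, was found for 29.2%. The array medians given above moved in the same directions. With the arrays centred on the median of all probe sets, the NP differences were 0.11 and 0.14 for AT5G09460 and AT1G29950, and the PL differences -0.37 and -0.12.

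**Figure D3:**
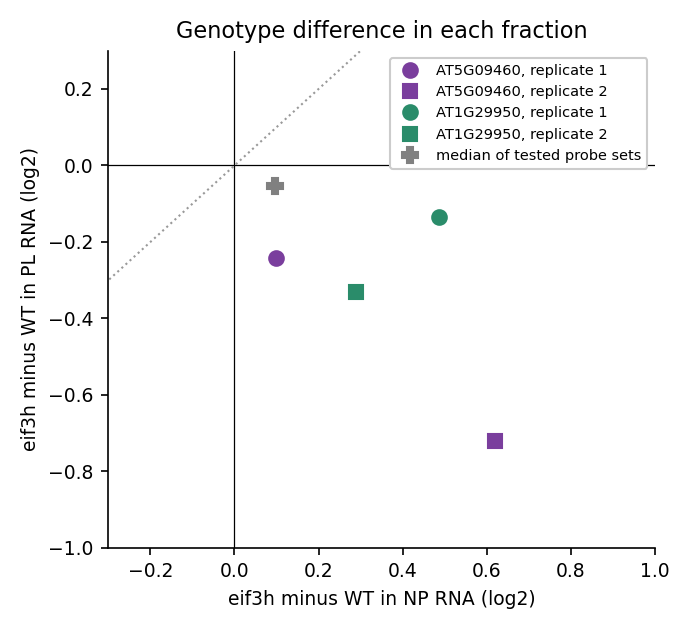
The difference eif3h minus WT (log2) in PL RNA is plotted against that in NP RNA for each replicate of AT5G09460 and AT1G29950, with the median over all tested probe sets as a grey cross and equal differences as a dotted line. All 4 points lie where the plot has higher NP and lower PL signal in eif3h, from 0.10 and -0.24 to 0.62 and -0.72 for AT5G09460.

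AT5G50010, the remaining relative with a probe set, was near the bottom of the signal range. Its signals were 4.9 and 128.2 in NP of WT, 26.0 and 55.4 in PL of WT, 52.9 and 67.6 in NP of eif3h, and 12.7 and 22.3 in PL of eif3h. The arrays' 20th percentiles lay between 34.8 and 65.9, and the mean log2 signal of 4.97 was above 16.6% of probe sets. The PL arrays of eif3h were below those of WT, as for 29% of tested probe sets, although this probe set was not among those tested. The NP arrays of WT lay on either side of those of eif3h.

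Its translation states were 2.41 and -1.21 in WT and -2.06 and -1.60 in eif3h, and the change was -4.47 in replicate 1 and -0.39 in replicate 2, with an SD of 2.88. The first of these rests on the signal of 4.9 in the first NP array of WT. With all probe sets fitted, the mean change was -2.43 ± 1.61 (SE; 95% confidence interval -6.07 to 1.22; limma, adjusted p = 0.62), and adding 16 to each signal brought it to -1.19. At this signal a difference between the genotypes was not detectable.

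The mRNAs whose signals followed these genes most closely over the 8 arrays were found by Pearson's r of the log2 signals, a description only, since the arrays share their scaling, day and gradients. For AT5G09460 they were TTN9 (AT3G20070, r = 0.98), AT5G48460 (r = 0.98) and AT5G19430 (r = 0.97). For AT1G29950 they were AT3G27320 (r = 0.96), AT1G72700 (r = 0.95) and AT2G46420 (r = 0.94). The 2 bHLH genes had r = 0.84 with each other. The values above are the highest among all named tested probe sets, so this pair cannot be judged against them.

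LHW (AT2G27230), the bHLH partner that the proteins of this family bind, was also measured, alone among the 8 listed LHW and TMO5 genes, and its own leader holds a conserved uORF. Its signals were 462.9 and 517.5 in NP and 517.5 and 642.7 in PL of WT, and 657.3 and 658.7 in NP and 425 and 532.4 in PL of eif3h. Both NP arrays of eif3h were above those of WT, as for 29.2% of tested probe sets, while the PL arrays overlapped. Its change of translation state was -0.79 and -0.62 in the 2 replicates, with a mean of -0.71 ± 0.29 (SE), and did not pass the test (limma, adjusted p = 0.31).

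Conserved uORFs occur in other families too, and 24 loci with such leaders outside the SAC51 family were listed, of which 9 were measured. The change of translation state was negative for 6 and positive for 3, with a median of -0.63 beside -0.12 for all tested probe sets, of which 59.2% were negative. None of the 9 passed the test in limma or with the gradient as a block. An unadjusted p under 0.05 was found for 2 of them, LHW and SAMDC3, against 1647 of the 11373 tested probe sets, for 4 with the gradient as a block, against 2208 of all, and for 1 after quantile normalization, against 1316 of all. The reference annotates a conserved uORF peptide by name at 2 loci, AT2G31280, which is also among the 24, and CPUORF47 (AT5G03190). Of these only CPUORF47 was measured, with changes of -1.003 and -0.55 and a mean of -0.78 ± 0.39 (SE; limma, adjusted p = 0.40). Its difference in NP of eif3h was 0.92 (limma, adjusted p = 0.049), in a comparison that called 17.1% of tested probe sets. The call was lost after quantile normalization (0.85, adjusted p = 0.061) and without the filter (adjusted p = 0.097).

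bZIP53 (AT3G62420), a leucine zipper factor of the group whose uORF responds to sucrose, had signals from 3406.8 to 4770 in the NP arrays and from 842.3 to 1394.7 in the PL arrays. It thus lay far more in NP than the bHLH mRNAs in both genotypes. Its translation states of -1.65 in WT and -2.30 in eif3h both passed the test (limma, adjusted p = 0.0016 and 3.0e-04), in comparisons that called 30.1% and 39.2% of tested probe sets. Its change was -0.50 and -0.80, with a mean of -0.65 ± 0.33 (SE; limma, adjusted p = 0.40).

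Among genes that make and break down polyamines, 3 of 17 listed were measured, all of them S-adenosylmethionine decarboxylases, which supply the aminopropyl groups of spermidine, spermine and thermospermine and whose leaders also hold conserved uORFs. SAMDC3 (AT3G25570) had signals of 491.7 and 420.7 in PL of WT and 150.3 and 90.6 in PL of eif3h, with no overlap, and of 686.3 and 341 against 299 and 444.3 in NP, which overlapped. Both PL signals of eif3h were below the medians of their arrays, 185.75 and 189.0. PL arrays of eif3h that both lay below those of WT were found for 29% of tested probe sets. SAMDC3 fell in PL of eif3h, with a difference of -1.96 ± 0.36 on the log2 scale (SE; limma, adjusted p = 0.011), where 13.5% of tested probe sets were called. Its change of translation state was -0.51 and -2.60, with a mean of -1.55 ± 0.51 that did not pass the test (adjusted p = 0.24).

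The change of SAMDC2 (AT5G15950) was -0.22 and -1.03, with a mean of -0.63 ± 0.53 (SE; limma, adjusted p = 0.61). SAMDC1 (AT3G02470), with the highest signals of the named genes at 19013.5 to 34754.9, had changes of 0.03 and 0.16, with a mean of 0.09 ± 0.27 (adjusted p = 0.90) that turned negative after quantile normalization. Thermospermine synthase itself was not among the genes with a named probe set here.

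SAC56 (AT3G09630) encodes a large-subunit ribosomal protein, a mutation of which also suppresses acaulis5, and of 3 such suppressors outside the bHLH family it alone was measured. Its mRNA lay toward polysomes in both genotypes. Its translation states of 0.80 in WT and 1.16 in eif3h both passed the test (limma, adjusted p = 0.018 and 0.0027), in comparisons that called 30.1% and 39.2% of tested probe sets. Its change was 0.002 and 0.71, with a mean of 0.36 ± 0.29 (SE; limma, adjusted p = 0.59), and it turned negative after quantile normalization. None of the 8 listed genes of vascular and xylem differentiation was named on the array here.

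Other genes that the reference names as bHLH factors served as a further comparison. Of 34, 7 were named and 5 passed the filter. The 5 had 3 negative and 2 positive changes, beside the 59.2% negative over all tested probe sets, and a median of -0.17. None was called with limma or with the gradient as a block, and none had an unadjusted p under 0.05. LHW, also a bHLH factor, is not among the 34, since the reference does not name it so. Its change of -0.705 had an unadjusted p under 0.05 in limma, so the 5 do not stand for bHLH genes in general. ILR3 (AT5G54680), bHLH115 (AT1G51070) and bHLH121 (AT3G19860), which regulate iron uptake genes, had mean changes of 0.44 ± 0.36, -0.18 ± 0.34 and 0.24 ± 0.36 (SE). Their replicates were -0.08 and 0.96 for ILR3, -0.38 and 0.008 for bHLH115, and -0.40 and 0.88 for bHLH121, each on both sides of 0. The difference between these genes and the SAC51-type genes was not tested.

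**Figure D4:**
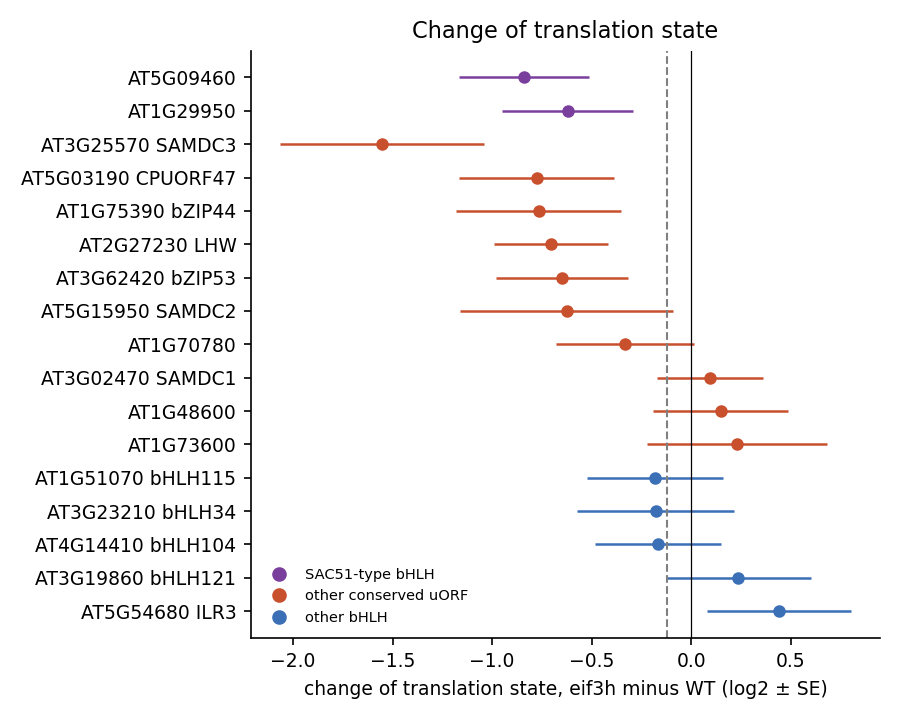
The mean change of translation state, eif3h minus WT (log2), is plotted with its SE from the limma fit. AT5G09460 and AT1G29950 are purple. All other measured genes listed with a conserved uORF, LHW among them, are orange. Other tested genes that the reference names as bHLH factors are blue. A dashed line gives the median of all tested probe sets, -0.12. The values run from -1.55 for SAMDC3 to 0.44 for ILR3, and AT5G09460 and AT1G29950 lie at -0.84 and -0.62 among the genes with a conserved uORF.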

How the data were processed

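The arrays were ATH1 arrays of polysomal and non-polysomal RNA. The values are linear MAS 5.0 signal intensities, 1 for each probe set, which the authors had corrected for background and scaled before they were deposited. With 2% of values cut off at each end, the array means lay between 500.037 and 500.058. No detection calls entered the filter. From the deposited intensities log2 values were taken without an offset, and of 22746 probe sets without the 64 controls the 50% with the highest mean log2 signal were tested. The model in limma 3.58.1 under R 4.3.3 held 4 group means and a term for the replicate number over all 8 arrays, and variances were moderated by eBayes along their trend with signal. Benjamini-Hochberg adjusted p under 0.05 over all tested probe sets counted as past the test. Tests are two-sided, and the number of arrays limits the precision.

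Gene names came from the platform table and RefSeq (TAIR10.1, names only): 13437 had 1 locus, 493 several, 86 a name absent from RefSeq and 8730 no entry. A symbol repeated under several gene identifiers counted as 1 gene, which holds for 10 probe sets, and TIF3H1 was named through the study's supplementary gene list. Cross-hybridization among relatives was not tested. No sequences are shown.

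The replicate numbers pair the samples, since each marks a preparation day in the methods and a scan day and scanner in the array records, and replicate deviations of any 2 groups correlated with r from 0.33 to 0.68. Arrays of a gradient were scanned next to each other. No pair of arrays held identical values.

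The genes named are those of the SAC51 family, the 3 probe sets closest in profile to each tested member, from each list the members with the 3 smallest unadjusted p, and TIF3H1. Members, by locus, and lists were chosen with earlier results of these data known. The list of 24 loci was meant for use only if the reference annotated no conserved uORF, and is given beside the 2 loci it annotates.

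Alternatives were quantile normalization, centring on the median of all probe sets, an offset of 16, no filter, the 25% of highest signal, no replicate block, the gradient as a block, log2 PL/NP per gradient, and leaving out each array. Centring on tested probe sets, and the gradient block after quantile normalization or after that centring, were added after seeing the data. The fits were tested on simulated data: sizes were recovered without bias and false calls were few. Not every changed probe set passed, fewer did at the smaller simulated size, and the criterion for this step was relaxed after its first run. The changes of AT5G09460 and AT1G29950 were smaller than the simulated sizes, so a change that did not pass was not shown to be absent. The simulated replicates shared a shift, but the fractions of a gradient shared nothing more. The simulation thus did not test the fits under the correlation within gradients seen here (r = 0.68 in WT and 0.52 in eif3h).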

Additional observations from a re-analysis of the deposited data

Results flagged for a closer look

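The change of translation state of TIF3H1, the mutated gene, differed between the genotypes by the test of the difference itself. It was -2.57 ± 0.27 (SE, n = 2 per genotype; limma, adjusted p = 0.042), with the lower ratio in eif3h in both replicates. The test was no longer passed after quantile normalization, without the filter on signal, or without the replicate block. Adjusted p-values in limma ranged from 0.00167 to 0.32 over the alternatives other than left-out arrays. The call was also lost for most left-out arrays, which leave a group without a replicate, while the change ranged from -2.694 to -2.448.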

How the results depend on the processing

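Without the replicate block no probe set passed for the change of translation state, against 6 with it, 0 without the filter, 1 after quantile normalization (1316 at an unadjusted p under 0.05), 40 with centring on the median of all probe sets (35 higher, 5 lower, against 2 and 4) and 186 with the gradient as a block (116 and 70). Centring on tested probe sets gave 5 (3 and 2). For AT5G09460 the change without the block, which cannot move the value itself, was -0.84 (limma, adjusted p = 0.66). Its translation state in eif3h still passed without the block (limma, adjusted p = 0.041). Leaving out the block changed no call of AT5G09460 or AT1G29950.

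The changes ranged from -0.84 to -0.48 for AT5G09460 and from -0.62 to -0.26 for AT1G29950 over settings with all arrays, and from -1.08 to -0.60 and from -0.86 to -0.38 over left-out arrays. The translation state in eif3h of AT5G09460 was -0.397 and lost its call with centring on the median of all probe sets, a setting that moves every array by its own median, and ranged from -1.147 to -0.668 over left-out arrays. That of AT1G29950, -0.63, passed with the gradient block and ranged from -0.87 to -0.39. The translation states in WT changed sign: AT5G09460 was 0.081 with centring on the median of all probe sets and -0.175 to 0.042 over left-out arrays, and AT1G29950 was 0.138 with that centring, 0.001 after quantile normalization with either block, and -0.25 to 0.231. Over left-out arrays the differences in PL ranged from -0.707 to -0.257 (AT5G09460) and from -0.473 to 0.006 (AT1G29950), and those in NP from 0.12 to 0.599 and from 0.147 to 0.628. The change of AT5G50010 ranged from -4.406 to -0.449 over left-out arrays.

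Of the other genes, quantile normalization with either block turned the change of SAMDC1 (AT3G02470) to -0.062 and that of SAC56 (AT3G09630) to -0.038, and centring on the median of all probe sets turned that of bHLH115 (AT1G51070) to 0.181. Left-out arrays gave ranges that cross 0 for SAMDC1 (-0.017 to 0.205), bHLH115 (-0.534 to 0.167), bHLH121 (AT3G19860, -0.106 to 0.579) and SAMDC2 (AT5G15950, -1.33 to 0.081), and ranges on 1 side of 0 for SAMDC3 (-2.167 to -0.941), LHW (-0.836 to -0.573), bZIP53 (-0.985 to -0.314), CPUORF47 (-1.113 to -0.441), SAC56 (0.145 to 0.571) and ILR3 (0.059 to 0.821). The cause of these reversals was not tested. Neither AT5G09460 nor AT1G29950 is among the 25% of probe sets with the highest signal, so that setting gave no value for them.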
